A study of Arabidopsis thaliana with 8 samples.

Results

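The 12 probe sets described here had lower signals after drought in dor mutant leaves of Arabidopsis thaliana in both replicate pairs, and were not similarly lower in either wild type (WT) pair, where some were higher. They were selected as such, and the test for a difference between the genotypes called none of them. They were picked from Affymetrix ATH1 arrays by their measured values: with signals under the 40th percentile of an array raised to that percentile, the log2 difference of drought minus control had to be at most -1.5 in both dor pairs and at least -0.5 in both WT pairs. A log2 difference of -1.5 is a 2.83-fold lower signal. Of 22746 probe sets that are not Affymetrix controls, 12 met this, or 0.0528%. Organelle genes and several gene families were to be left out by name, which removed 0 probe sets. The probe annotation pairs 4 of the 12 with 1 gene and does not list the other 8, so these 8 are given by probe set number and could not be checked against the left-out names.

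The 8 arrays form 4 groups of 2 biological replicates, all of rosette leaves of soil-grown plants in the Columbia background under 16 h of light at 22 °C. Droughted dor plants were watered for 24 days and then not for 10 days, and control dor plants were watered for 34 days. WT plants were droughted and watered in the same way. The dor plants carry 1 T-DNA insertion line (Salk-050074), so the genotype is represented by a single mutant line. RNA comes from whole rosette leaves, so fewer cells of a type and less RNA per cell cannot be told apart. Pairs are taken by replicate number, although the labels do not say that equal numbers share a batch. The p-values set a difference of group means against the spread between arrays of the same group, moderated over many probe sets.

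DOR (AT2G31470) codes for an F-box protein, the part of a ubiquitin ligase that picks the target. It is known as a repressor of drought tolerance that works against the closure of stomata by abscisic acid (ABA), the hormone of water shortage. Drought in leaves generally raises genes of ABA-dependent protection and lowers genes of growth, cell wall loosening and photosynthesis. DOR itself read 2.3 and 3.7 in dor drought, 3.7 and 21.4 in dor control, 3.1 and 5.2 in WT drought and 7.0 and 5.0 in WT control. All these signals lie under the 40th percentile of their arrays, 59.5 to 90.8, so its signal cannot be used to check which plants were mutant. The root hair expansin gene EXPA7 lay under that percentile on all 8 arrays. The photosynthesis gene RCA, the Rubisco activase, read 9383 to 36420 over the 8 arrays and was lowest in droughted dor replicate 1. Other leaf genes were also lower after drought in both dor pairs. PRK, the phosphoribulokinase of the Calvin cycle, had log2 drought differences of -3.94 and -0.92 in dor and -0.29 and -0.21 in WT. SBPASE, a phosphatase of the same cycle, had -4.78 and -1.13 in dor and -2.01 and 0.16 in WT. The trichome marker TRY, a regulator of leaf hair patterning, had -5.04 and -2.15 in dor and -3.86 and 1.75 in WT. Of the guard cell markers FMA had 0.30 and -1.12 in dor and 0.62 and -1.06 in WT, and CHX20 read 418.3 to 552.2 on all arrays. The guard cell lineage genes SPCH and MUTE lay under the 40th percentile on all 8 arrays. The part of these genes' cells in the members' values was not tested. Only 6 of 34 marker loci looked up have a probe set with a name, and TRY is the 1 of 3 trichome markers that does.

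The named members are 4 genes with no shared family. AT3G22060 codes for a secreted protein of the cysteine-rich repeat family (DUF26), and AT1G66180 for a protease of the aspartyl (pepsin-like) family. AT5G62280 codes for a protein with a domain of unknown function (DUF1442), and the function of AT5G57760 is not known. None of these 4 was in any of 18 pathway lists with 220 loci, among them photosynthesis, chlorophyll synthesis, clock, hormone and cell wall genes, and the 8 members without a name could not be looked up. Only 27 of these loci have a probe set with a name, so the lists cover a small part of those pathways.

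The secreted protein gene AT3G22060 read 159.1 and 116.5 in droughted dor leaves (replicates 1 and 2), against 624.2 and 635.8 in watered dor leaves. In WT it read 945.4 and 391.8 under drought, against 582.4 and 117.2 with water. The dor groups lie clearly apart, while watered WT leaves span almost the whole range, and their replicate 2 is close to droughted dor. The log2 drought differences were -1.97 and -2.45 in the dor pairs and 0.70 and 1.74 in the WT pairs.

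The aspartyl protease gene AT1G66180 read 183.7 and 411.9 in droughted dor, against 537.0 and 1331.2 in watered dor. In WT its signals were 3095.5 and 1971.0 under drought, against 702.7 and 854.3 in watered plants. Here the conditions separate in both genotypes and in opposite directions: droughted dor leaves are lowest and droughted WT leaves highest. The log2 drought differences were -1.55 and -1.69 in dor and 2.14 and 1.21 in WT.

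AT5G57760, of unknown function, showed the same order of groups. Its signals were 66.1 and 118.3 in droughted dor and 287.5 and 392.3 in watered dor. In WT they were 428.3 and 452.8 under drought and 271.0 and 275.8 with water. The 2 WT replicates are close to each other in both conditions, so this gene has the steadiest WT values of the 4. The log2 drought differences were -2.12 and -1.73 in dor and 0.66 and 0.72 in WT.

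AT5G62280, the DUF1442 gene, had the lowest single signal of the 12 members. It read 7.2 and 4.3 in droughted dor, against 179.2 and 301.4 in watered dor. In WT it read 2260.8 and 47.6 under drought, against 115.2 and 38.2 with water. Both droughted dor arrays and both WT arrays of replicate 2 lie under the 40th percentile, so the sizes of its differences depend on where low signals are set. With low signals raised, the log2 differences were -1.54 and -1.73 in dor and 4.29 and -0.04 in WT. The value of 4.29 rests on WT drought replicate 1 alone, which reads 47.5 times replicate 2.

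The 8 probe sets without a name behave in 2 ways in WT. In the probe sets 260070_at, 246522_at and 267516_at, as in AT3G22060, the WT control arrays stand far apart. With low signals raised, 260070_at had the lowest mean drought difference in dor, and without raising AT5G62280 and 251154_at were lower still, at -5.38 and -3.64 against -3.54. The signals of 260070_at, under the percentile on both droughted dor arrays, were 37.6 and 37.3 in droughted dor against 603.8 and 313.6 in watered dor. Its WT signals were 820.4 and 162.1 under drought and 425.5 and 110.4 with water. Both WT conditions are thus several times higher in replicate 1 than in replicate 2. Probe set 246522_at read 60.5 and 50.6 in droughted dor and 456.2 and 299.0 in watered dor. Its WT signals were 467.2 and 216.8 under drought and 475.1 and 20.7 with water, so the lowest of all arrays is a watered WT one. The brightest member, 267516_at, read 1342.2 and 887.7 in droughted dor and 3816.2 and 3261.2 in watered dor, and in WT 4233.2 and 1728.5 under drought and 2908.9 and 456.2 with water. Its watered WT replicate 2 likewise lies below both droughted dor arrays.

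The other 5 unnamed members differed less between the WT conditions. Probe set 251154_at read 13.1 and 119.0 in droughted dor and 392.7 and 616.5 in watered dor, and in WT 225.4 and 260.1 under drought and 250.0 and 331.1 with water. Probe set 251785_at read 298.9 and 340.4 in droughted dor and 1063.7 and 3025.4 in watered dor, and in WT 838.0 and 704.1 under drought and 1074.1 and 993.0 with water. In 251785_at the WT conditions also lie apart, in the same direction as in dor but by less, with log2 differences of -0.36 and -0.50. Probe set 264200_at read 96.7 and 16.0 in droughted dor and 326.6 and 347.7 in watered dor, and in WT 263.7 and 218.9 under drought and 343.3 and 258.8 with water. Probe set 261594_at read 170.0 and 246.9 in droughted dor and 587.4 and 834.2 in watered dor, and in WT 854.7 and 373.4 under drought and 1090.8 and 510.3 with water. These are small WT differences beside a spread between WT replicates of 2.29-fold under drought and 2.14-fold with water in 261594_at. Probe set 259671_at read 58.7 and 382.5 in droughted dor and 398.6 and 1208.6 in watered dor, and in WT 246.7 and 859.7 under drought and 338.3 and 742.4 with water. In it every group is higher in replicate 2, and droughted dor replicate 2 overlaps the WT arrays of replicate 1.

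**Figure D1:**
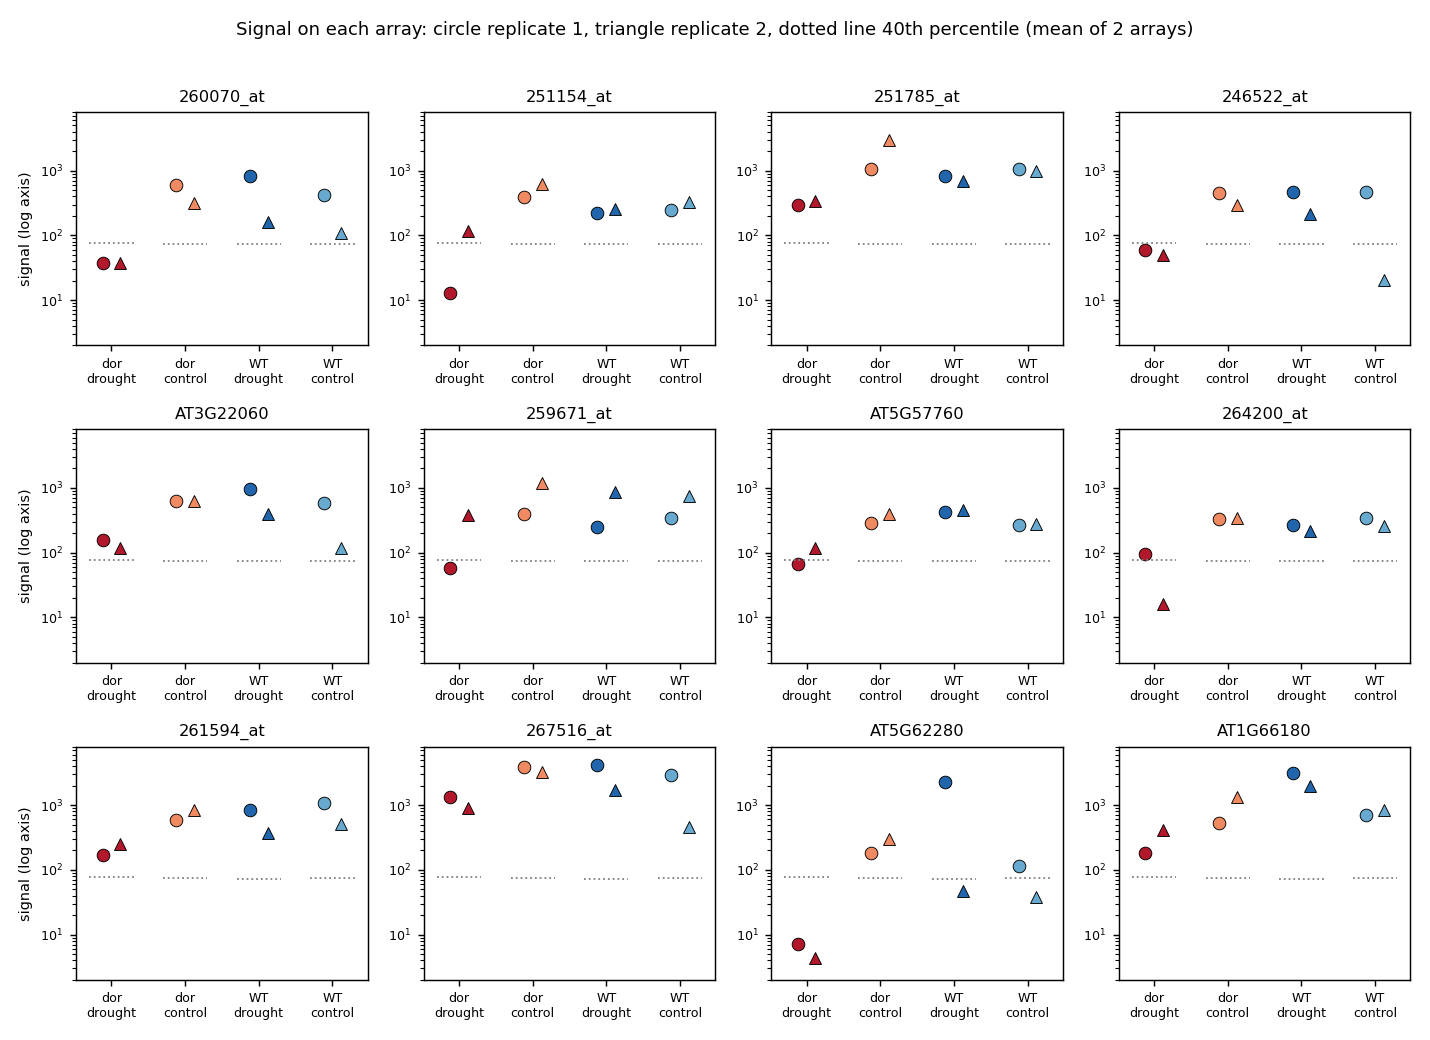
Signal (log axis) of the 12 probe sets on each of the 8 arrays, with groups from left to right dor drought, dor control, WT drought and WT control; circles are replicate 1, triangles replicate 2 and the dotted lines the 40th percentile averaged over the 2 arrays of a group. Droughted dor lies below watered dor in every panel, while the WT replicates of 260070_at, 246522_at, AT3G22060, 267516_at and AT5G62280 stand far apart.

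Across the 12 members the droughted dor signals lay below the watered dor signals without overlap in 12 of 12. Among the 15523 probe sets with at least 2 arrays at or above the 40th percentile, all 12 members included, 22.9% did so. Since the rule used these arrays, nothing is read from this share. In WT the conditions overlapped in 9 of 12 members. WT drought lay above WT control in 2, AT5G57760 and AT1G66180 (22.9% of tested probe sets), and below it in 251785_at (18.8% of tested probe sets). Droughted dor was lower than every other array in 8 of 12 members (7.83% of tested probe sets). The exceptions were 246522_at, AT3G22060 and 267516_at, where watered WT replicate 2 was as low or lower, and 259671_at. The rule selected on the same arrays, so nothing is read from any of these counts and shares.

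Low signals limit the size of the dor differences. In 6 of 12 members at least 1 droughted dor array lay under its 40th percentile, and in 3 (260070_at, 246522_at and AT5G62280) both did. The median over the 12 members of the mean log2 drought difference was -2.05 in dor, with a range from -2.54 to -1.62, and 0.66 in WT, with a range from -0.43 to 2.13. The WT median was 0.38 without replicate 1 and 0.26 without replicate 2. Over all tested probe sets the same medians were 0.11 in dor and 0.09 in WT. In 5 of 12 members (260070_at, AT3G22060, AT5G57760, 267516_at and AT1G66180) both WT pairs were positive. Of all tested probe sets 31.9% were, and since the rule barred WT values under -0.5, nothing is read from the members' count.

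**Figure D2:**
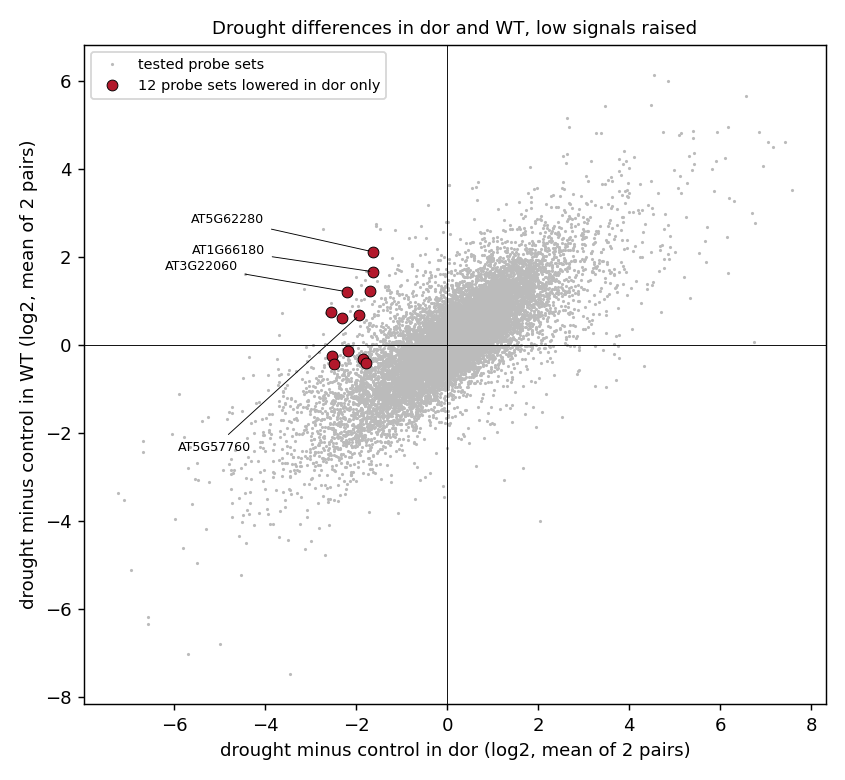
Mean log2 drought difference of the 2 pairs in dor (horizontal) against that in WT (vertical), with low signals raised, for 15523 tested probe sets (grey) and the 12 members (red, 4 of them named). The members lie between -2.54 and -1.62 in dor and between -0.43 and 2.13 in WT.

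Where the genotype difference of the members lies was not the same in the 2 replicate numbers. Droughted dor lay below droughted WT without overlap in 11 of 12 members (15.1% of tested probe sets), all but 259671_at, and watered dor above watered WT in 5 (7.57%). Pair by pair, under drought dor was lower than WT in both replicate numbers in 11 of 12 members (26.1% of tested probe sets), with AT5G62280 the exception, since both its droughted signals of replicate 2 lay under the percentile. With water dor was higher in both replicate numbers in 7 of 12 (24.2%). The median log2 difference of dor minus WT under drought was -2.45 in replicate 1 and -1.15 in replicate 2. With water it was 0.09 in replicate 1, where it ranged from -0.89 to 0.65. In replicate 2 it was 1.20, and there watered dor was higher than watered WT in all 12 members, by 0.43 to 2.84. Over all tested probe sets these 4 medians lay between -0.08 and 0.07. In replicate 1 the members therefore differ between genotypes mainly on the droughted arrays, and in replicate 2 on the droughted and the watered arrays about equally. The rule used all 8 arrays, so these counts, ranges and medians describe the members and support nothing.

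**Figure D3:**
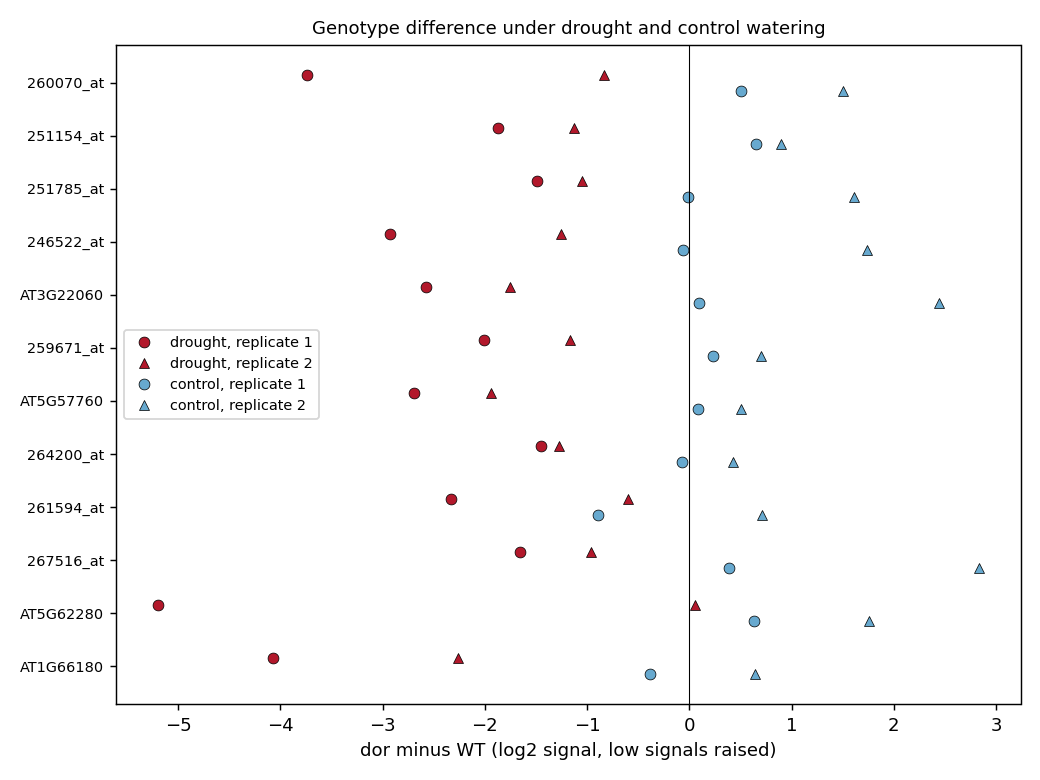
Log2 difference of dor minus WT for each of the 12 members under drought (red) and with water (blue), with low signals raised; circles are replicate 1 and triangles replicate 2. Under drought all values but 1 are negative (AT5G62280, replicate 2), and with water the replicate 2 values run from 0.43 to 2.84 while the replicate 1 values lie between -0.89 and 0.65.

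Arrays of replicate 2 differed from those of replicate 1 in other genes as well. The median signal of an array was 97.4 to 120.4 in replicate 1 and 163.4 to 170.8 in replicate 2. The 40th percentile, to which low signals were raised, was 59.5 to 64.3 and 84.8 to 90.8. The part of this shift in the members' values was not tested. The clock gene GI (AT1G22770) read 192.5 on the watered dor array of replicate 2, 1746.6 on the watered WT array of replicate 2 and at most 127.9 on the watered arrays of replicate 1. On the droughted arrays of replicate 2 it read 1754.4 in dor and 737.8 in WT. The cold- and drought-regulated gene AT2G42530 (COR15B) read 8674.0 on the watered WT array of replicate 2 and at most 1970.1 on the other 7 arrays, and AT4G30650, of a low-temperature- and salt-responsive family, 11035.4 and at most 1357.3. These 2 genes are among the 3 probe sets that met the mirrored rule, lower in WT only (0.0132%), which itself selects for high signals in watered WT. The other, AT3G45970 (EXLA1, of the expansin-like family), read 249.3 on that array, against 713.6 on watered WT replicate 1 and 1462.1 at most elsewhere. Their part in the values of the 12 members was not tested. The labels also name an RNA reagent (RNAplant) for dor replicate 1 and WT replicate 2 and leave it out for the other 4 arrays. Its part in the members' values was not tested. Of the 2 actin ratios of 5 prime over 3 prime signal, 1 was 0.245 and 0.229 in the watered dor and WT arrays of replicate 1, and 0.366 to 0.575 on the others. The other did not set these arrays apart as low, with 0.116 and 0.0755 there and 0.0549 to 0.103 elsewhere. The same ratio for GAPDH was lowest on these arrays, at 0.564 and 0.442 there and 0.603 to 0.776 elsewhere. The part of RNA quality in the members' values was not tested.

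A limma model of the 4 group means over all 15523 tested probe sets, without raised signals, called none of the 12 members. For the difference of the drought responses, dor minus WT, limma called 0 probe sets (0%) at an adjusted p of 0.05. Without adjustment 185 (1.19%) passed the same threshold, among them 10 of the 12 members. The estimates were -3.43 ± 1.17 (SE) for AT3G22060, -3.29 ± 0.96 for AT1G66180, -2.61 ± 0.81 for AT5G57760 and -7.69 ± 2.26 for AT5G62280, each with an adjusted p of 1 by limma. This fit did not use the deviations shared by dor and WT arrays of equal condition and number. With these arrays as a random block limma again called 0 probe sets, and the members' adjusted p ran from 0.449 to 0.754. As a fixed block they gave 0 calls and adjusted p from 0.856 to 0.871. Without adjustment 1079 of the 15523 tested probe sets passed with the random block, against 185 without it, and 11 members were among the 1079. The rule used these arrays, so nothing is read from that count. The members were selected as lower in dor only, and with 2 arrays a group the fits cannot decide more about that pattern. A difference between the genotypes in their drought response was not shown by these fits, and its absence was not shown either. For drought in dor limma called 88 probe sets (0.567%), 39 of them lower (0.251%), and 0 of the 12 members, whose adjusted p ran from 0.135 (251785_at) to 0.399 (267516_at). Without adjustment 2433 (15.7%) passed, among them 9 of the 12 members, which the rule had chosen by this difference. For drought in WT limma called 1 probe set (0.00644%) and no member, and without adjustment 1 member passed (9.55% of tested probe sets). These counts of members support nothing. Between the genotypes limma called 0 probe sets (0%) both under drought and with water, although 492 (3.17%) passed without adjustment under drought, 7 members among them. With water 71 (0.457%) passed without adjustment, and 0 members. With the dor and WT arrays of equal condition and number as a random block, limma called 22 probe sets under drought and 0 members, and with them as a fixed block it called 0.

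The members are a thin edge of a larger group. In all, 443 probe sets (1.95%) were at most -1.5 in both dor pairs, and 130 (0.572%) were so in all 4 pairs of both genotypes. With signs turned, 23 probe sets (0.101%) met the rule. The 3 members nearest the dor threshold were 267516_at at -1.51, AT5G62280 at -1.54 and AT1G66180 at -1.55, each by its weaker pair. Among probe sets with a gene name, AT1G21050 at -1.46, AT3G15530 at -1.43 and AT2G03750 at -1.43 lay nearest outside. The unnamed 266996_at lay nearer, at -1.49 in its weaker dor pair. At the WT threshold 251785_at at -0.50, 259671_at at -0.46 and 261594_at at -0.45 were just inside. Nearest outside among those with a gene name were AT1G51070 (the transcription factor gene bHLH115) at -0.58, AT4G15430 at -0.62 and AT1G51400 at -0.68.

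No probe set met a stricter form of the rule that does not use the replicate numbers. For this the highest droughted dor signal had to lie at least 1.5 log2 units under the lowest watered dor signal, and the lowest droughted WT signal at most 0.5 under the highest watered WT signal, an alternative chosen after the data were seen. Every droughted array thus had to pass against every watered one of its genotype, which can only lower the count. Mean differences do not depend on the numbering either. In the 12 members they were -1.62 or lower in dor and -0.43 or higher in WT, as fixed by the rule. With quantile normalization 17 probe sets met the rule, of which 7 were members, and with median centring 15, of which 8 were members.

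Probe sets whose signals followed the members most closely over the 8 arrays were looked up by Pearson correlation of log2 signals with low values raised. Arrays of 1 condition and replicate number share deviations, so these values are a description. For 260070_at the closest were 247673_at (r = 0.979), AT3G62820 (r = 0.975), which codes for a protein of the invertase and pectin methylesterase inhibitor family, and the wall gene TBL25 (r = 0.965). Then came 261195_at (r = 0.963) and AT1G21050 (r = 0.958), a gene of the DUF617 family. AT1G21050 read 234.0 and 431.3 in droughted dor, 1540.8 and 1186.8 in watered dor, 2187.5 and 689.8 in droughted WT and 1725.8 and 251.9 in watered WT. It shows the split of the WT replicates seen in 260070_at and missed the rule in 1 dor pair, at -1.46. The closest to the 4 named members were looked up after their values were seen. For AT3G22060 it was AAH (AT4G20070, r = 0.958), the allantoate amidohydrolase of purine breakdown, and AT1G21050 was also among the closest 5 (r = 0.942). The closest with a name were RTE1 (AT2G26070), a regulator of ethylene receptor function, for AT5G62280 (r = 0.974), AT1G78010 for AT1G66180 (r = 0.939) and AT3G50340 for AT5G57760 (r = 0.950). RTE1 read 883.9 in droughted WT replicate 1, where AT5G62280 is also highest, and 329.3 to 482.1 on the other arrays. Its log2 drought differences in dor were only -0.32 and -0.34.

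The chromosomal neighbours of the named members were looked up next. Up to 4 named loci with a probe set were taken on each side, within 12 protein-coding loci in the order of the RefSeq table of TAIR10.1. Of these 33 probe sets 0 met the rule, which had been applied to all probe sets and which 0.0528% met, so nothing is read from this. Among them 9 lay under the 40th percentile on all 8 arrays. AT3G22060 stands next to other genes of its secreted cysteine-rich family. Of these, AT3G22050 and AT3G21970 lay under the percentile on all 8 arrays, AT3G22020 on 7 and AT3G22040 on 6, with no signal of the 4 above 77.2. AT3G22060 itself lay above it on all 8 arrays. Near AT1G66180 the thionin gene AT1G66100, which codes for a small defence peptide, read 12.2 and 439.7 in droughted dor and 30494.4 and 20042.5 in watered dor. In WT it read 3664.3 and 1148.8 under drought and 26926.0 and 16444.4 with water. It was at most -1.5 in all 4 pairs, the 1 neighbour with such differences in both dor pairs.

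**Figure D4:**
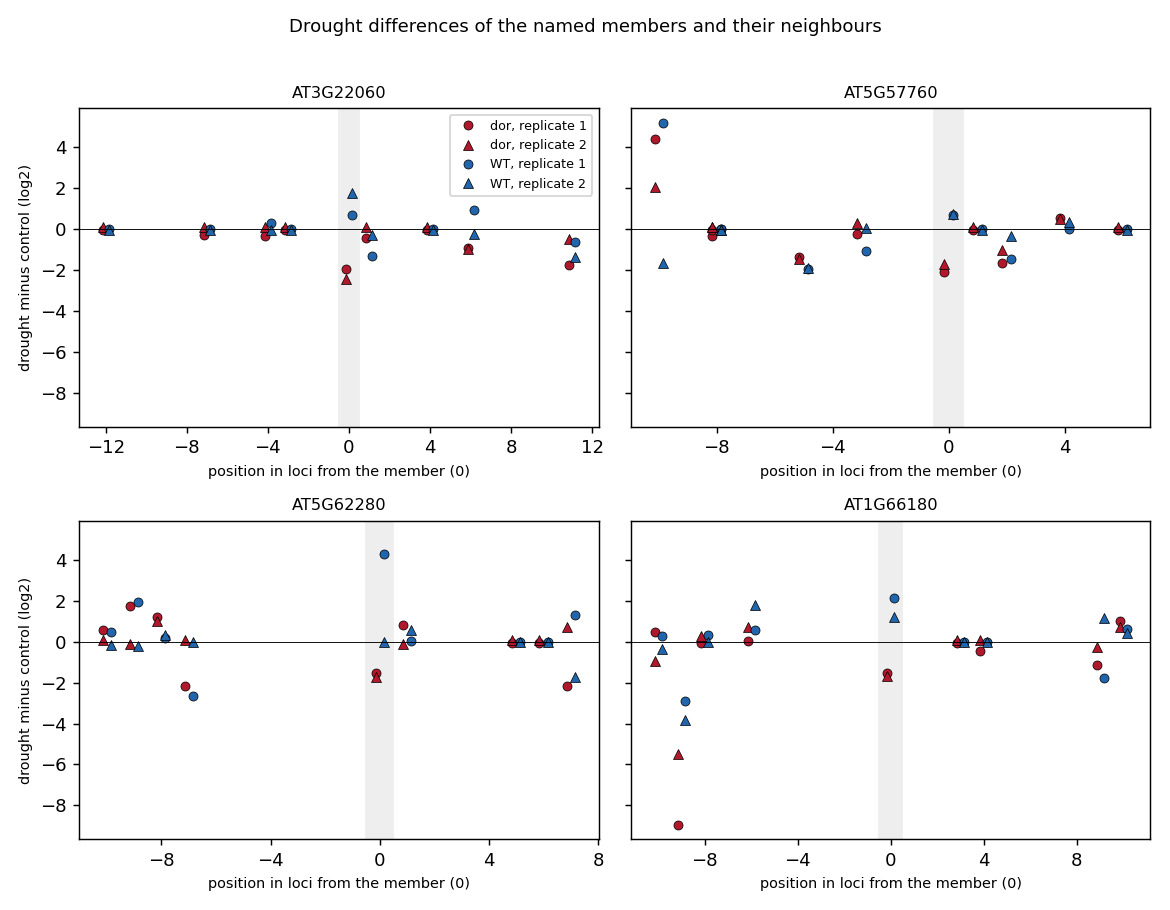
Log2 drought difference, with low signals raised, of the 4 named members (position 0, shaded) and of up to 4 named loci on each side by their position in the order of protein-coding loci; red is dor, blue WT, circles replicate 1 and triangles replicate 2. Among the loci drawn, only the members at 0 have both dor values at or under -1.5 and both WT values at or above -0.5, and in the panel of AT1G66180 the thionin gene AT1G66100 is low in all 4 pairs.

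The 23 probe sets higher under drought in dor only give the mirror image by sign. Their median difference of the drought responses was 2.76, against -2.77 for the 12 members, both set by the rule. With water in replicate 2 their median of dor minus WT was -0.25, against 1.20 for the members. The cold- and drought-regulated gene AT2G42540 (COR15A) among them read 35582.6 and 22806.0 in droughted dor and 3273.7 and 615.0 in watered dor. In WT it read 1612.6 and 8003.6 under drought and 2229.0 and 11241.4 with water, where both arrays of replicate 2 were the higher ones.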

How the data were processed

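The authors deposited 1 linear signal intensity for each of 22810 probe sets on 8 one-colour ATH1 arrays, from cRNA of 5 µg of total RNA. The submitters' processing notes name GCOS and MAS5 and no version. The mean intensity after trimming 2% at each end lies at 500 on each deposited array, and 0 columns were left unmapped. Of the probe sets 13513 stand for 1 gene, 503 for several and 8794, controls included, are not listed, and 13436 of the first matched the RefSeq table. The deposited data name no genome build, and no coordinates are given. Only the order of neighbouring loci was taken from the RefSeq table of TAIR10.1. No sequences were used.

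Drought was compared with control by replicate number on log2 signals raised to the 40th percentile of their array. limma 3.58.1 (R 4.3.3, lmFit and eBayes with an intensity trend) was fitted to 15523 probe sets with signals under 1 set to 1, without raising, and Benjamini-Hochberg adjustment over each comparison. The fit was run on simulated data with independent noise on each array. These lacked the deviations that dor and WT arrays of equal condition and number share. Nothing is read from that run for the comparisons between genotypes. The members, lists and alternatives were chosen with earlier results of these data known. By rule the text names all members with a gene. At each threshold it names the 3 nearest members inside and the 3 nearest probe sets with a gene name outside. It also names the 5 closest by correlation to the member with the lowest mean difference in dor. Unnamed members, neighbours and other closest genes were added after values were seen. The planned search for promoter motifs was not run. Deviations of equal replicate numbers correlated at r = -0.04 between the dor groups and 0.05 between the WT groups, so they were not treated as pairs in the fit. Between genotypes they correlated at 0.59 with water and 0.40 under drought. With 2 arrays a group, this number limits the precision. Plots used Python 3.11.15 with matplotlib 3.10.9, and tables pandas 2.3.3.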

Additional observations from a re-analysis of the deposited data

Results flagged for a closer look

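In 5 members every dor pair was lower and every WT pair higher under drought. Of all tested probe sets 31.9% were higher in both WT pairs. The mean difference of the drought responses, dor minus WT with low signals raised, was -3.29 for 260070_at, -3.43 for AT3G22060, -2.61 for AT5G57760, -2.92 for 267516_at and -3.29 for AT1G66180. The rule fixed the dor values and barred WT values under -0.5, so nothing is read from this count or these differences. In 260070_at, AT3G22060 and 267516_at the signals of the WT conditions overlapped. The opposite direction was not tested beyond the limma fit, which called none of the members.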

How the results depend on the processing

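The count of 12 depends on the settings: 29 probe sets met the rule with low signals raised to the 20th percentile and 2 with the 60th, 72 and 1 with a dor threshold of -1 and -2, 5 with a WT threshold of 0, 248 and 334 without replicate 1 or 2, and 0 in the stricter form without the replicate numbers. The members' median drought difference in dor, -2.05, was -2.19 with quantile normalization, -2.17 with median centring, -2.35 with low signals not raised and -1.90 to -1.77 without 1 replicate. In WT, 0.66, it was 0.48, 0.50 (quantile, centring) and 0.26 to 0.38 without 1 replicate. The 88 limma calls for drought in dor became 154 with quantile normalization, 167 with low signals raised, 35 with the extraction wording as a block, 0 to 108 without 1 array and 0 without both watered arrays of replicate 1. The 1 call in WT became 3, 2 and 0 under the first 3 of these, 0 with median centring or no intensity trend, 0 to 6 without 1 array and 0 without both watered arrays of replicate 1. Where an array is left out, its lone partner is assumed to vary like the other groups. With the replicate block the counts were 96 in dor, 1 in WT and 0 for the difference of the responses, where 316 passed without adjustment, and no member was called. For dor minus WT under drought, limma with a random block that joins the dor and WT arrays of equal condition and number, chosen after seeing the data, called 22 and no member, and the same arrays as a fixed block gave 0 calls. The difference of the responses gave 0 calls in all 19 alternatives. The 1 member called in any alternative was 251154_at, for drought in dor without droughted dor replicate 2. The cause of these changes was not tested. Signals near the 40th percentile and 2 arrays a group limit all values.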
